A study of Mus musculus with 15 samples.

Results

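The genes described here are 51 expressed genes spread along mouse chromosome 11, of 37310 genes in the count table. They were listed by location and not by their change, with the most abundant row taken where a symbol occurred more than once. The chromosome itself was picked because its genes had been seen to lie higher in Taf6l-KO cells than in wild type, so every value of the Taf6l-KO libraries is given below as a description. Where genes are said to be called higher or lower in Taf6l-KO, the threshold serves only to describe them and is no independent test. RNA was measured in J1 cells, a line of mouse embryonic stem cells, grown in medium with fetal calf serum and leukaemia inhibitory factor (LIF). The 15 libraries form 5 groups of 3. A first experiment held cells with a knockout of Taf5l (Taf5l-KO), cells with a knockout of Taf6l (Taf6l-KO) and unmodified J1 cells (WT-Taf), and a second held cells with a knockout of Myc (Myc-KO) and J1 cells of their own (WT-Myc). The labels name no drug, Cre driver or age, and no allele beyond the knockouts. Nor do they tell whether the 3 libraries of a group are separate cultures or clones, and a p-value here covers no more than the library-to-library spread, which can be purely technical. The labels also leave unexplained a code that the descriptions of the Myc-KO libraries have in common.

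TAF5L and TAF6L are subunits of SAGA, a coactivator complex that acetylates and deubiquitinates histones at genes, while MYC is a transcription factor that drives growth and proliferation. Embryonic stem cell lines are known to gain or lose whole chromosomes or parts of them during culture, and an extra copy of a chromosome usually raises the RNA of most of its genes by a similar factor, with departures at single genes through their own regulation. The question asked of the 51 genes is therefore how even their difference was in Taf6l-KO, along the chromosome and from gene to gene. DNA copy number was not measured here, and its part in any result below was not tested.

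To show the start regions of members at both ends of the range of values, promoter sequences are printed. RefSeq sequences (GRCm38.p6, from 250 bases before to 50 after a start) were found for 45 of the 51 genes, in 67 promoters. The 4 printed here belong to the 2 genes highest and the 2 genes lowest in Taf6l-KO against wild type among those with a single listed promoter. Capitals mark 3 motifs searched on both strands, the E-box CACGTG that MYC and related factors can bind, the GC box GGGCGG and the CCAAT box CCAAT; matches of different motifs were allowed to overlap.
Nsf, chr11:103954007-103954306, minus strand: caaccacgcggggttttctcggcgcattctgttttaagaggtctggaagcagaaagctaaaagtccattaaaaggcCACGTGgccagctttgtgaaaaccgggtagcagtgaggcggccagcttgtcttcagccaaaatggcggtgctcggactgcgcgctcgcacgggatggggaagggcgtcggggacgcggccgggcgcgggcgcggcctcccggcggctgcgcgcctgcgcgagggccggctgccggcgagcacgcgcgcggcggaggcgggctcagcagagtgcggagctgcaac
Acadvl, chr11:70015379-70015678, minus strand: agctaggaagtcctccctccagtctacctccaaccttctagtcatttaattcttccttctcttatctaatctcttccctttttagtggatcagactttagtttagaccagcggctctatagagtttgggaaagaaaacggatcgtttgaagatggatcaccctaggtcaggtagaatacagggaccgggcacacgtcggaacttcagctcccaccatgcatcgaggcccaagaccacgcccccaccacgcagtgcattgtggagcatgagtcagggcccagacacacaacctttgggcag
Tob1, chr11:94211204-94211503, plus strand: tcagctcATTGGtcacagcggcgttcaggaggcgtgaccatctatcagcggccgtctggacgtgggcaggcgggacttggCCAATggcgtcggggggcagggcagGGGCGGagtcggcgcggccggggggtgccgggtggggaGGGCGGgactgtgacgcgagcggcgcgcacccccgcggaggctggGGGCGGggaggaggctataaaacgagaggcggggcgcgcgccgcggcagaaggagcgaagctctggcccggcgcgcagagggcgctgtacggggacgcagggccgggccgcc
Taf15, chr11:83472858-83473157, plus strand: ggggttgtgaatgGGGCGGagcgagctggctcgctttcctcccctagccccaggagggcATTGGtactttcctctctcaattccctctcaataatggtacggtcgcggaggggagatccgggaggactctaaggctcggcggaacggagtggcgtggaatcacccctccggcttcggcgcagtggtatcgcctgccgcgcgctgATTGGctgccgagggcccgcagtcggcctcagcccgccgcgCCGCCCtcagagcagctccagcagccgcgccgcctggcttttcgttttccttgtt
The promoter of Nsf held 1 E-box, that of Tob1 held 3 GC boxes and 2 CCAAT boxes, that of Taf15 held 2 of each of those, and that of Acadvl held none of the 3 motifs in these letters. Among the 67 promoters of the 45 genes, 16.4% held an E-box, 58.2% a GC box and 50.7% a CCAAT box. The shares over all 32851 promoters were 7.15%, 35.7% and 37.4%, and over all promoters of chromosome 11 they were 8.65%, 40.8% and 36.4%. Members were listed as expressed genes, whereas these wider sets were not limited to expressed genes. Some members have several promoters, and the E-box share rests on 11 promoters. Nothing is therefore read from the differences in motifs or GC content. The median GC content was 63.7% in these 67 promoters and 52.7% in all promoters. No promoter is given for Smarce1, Rdm1, Igf2bp1, Chd3, Kdm6b and Calcoco2.

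Library totals ran from 14935631 to 27650813 counts. Levels are given as CPM, the count scaled to a common library size with TMM factors (the trimmed mean of M-values). Taf6l was 26.8, 26.3 and 25.2 CPM in WT-Taf and 6.53, 7.17 and 6.06 CPM in Taf6l-KO, Taf5l fell by 1.02 on the log2 scale in Taf5l-KO, and Myc fell by 1.20 in Myc-KO. The targeted genes also differed in other knockouts. Myc had a log2 fold change of -0.83 in Taf6l-KO and -0.69 in Taf5l-KO. That of Taf6l was -0.35 in Taf5l-KO and 0.073 in Myc-KO, and that of Taf5l was 0.061 in Taf6l-KO and -0.19 in Myc-KO. On the deposited FPKM scale, all 10 embryonic stem cell markers listed averaged 1 FPKM or more in every group. Only 2 of 10 fibroblast markers reached that level, and Twist2, Dcn and Lum were at 0 in every group. In every group 2 of 3 neuroectoderm, 1 of 5 endoderm and 1 of 4 mesoderm markers also reached it. Of 3 trophectoderm markers 0 (Myc-KO) to 2 (Taf5l-KO and Taf6l-KO) did. Replicates differed by more than counting noise (chi-square per degree of freedom 2.68 to 36.4), and Myc-KO replicate 3 stood apart from the other Myc-KO libraries. Nme1 and Nme2, Actg1, H3f3b and Sumo2 have close relatives or processed copies elsewhere in the genome, so the estimated split of their reads is uncertain.

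In Taf6l-KO most of the 51 genes lay above wild type by a small amount. The fitted log2 fold change was above 0 for 40 genes, with a median of 0.14, an interquartile range from 0.045 to 0.23 and a range from -0.47 (Tob1) to 1.97 (Calcoco2). By edgeR at an adjusted p under 0.05, 31 genes were called higher and 5 lower, against 19.1% of the 15743 genes tested called higher and 18.2% called lower. All 3 Taf6l-KO libraries lay above all 3 wild-type libraries for 35 genes and below them for 7, where 25.4% and 23.5% of all genes tested did so. On log2(FPKM + 1), limma-trend called 18 higher and 2 lower. Nothing is read from these shares, because the chromosome was chosen on this contrast. In bulk RNA a change in every cell and a larger change in part of the cells cannot be told apart.

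**Figure D1:**
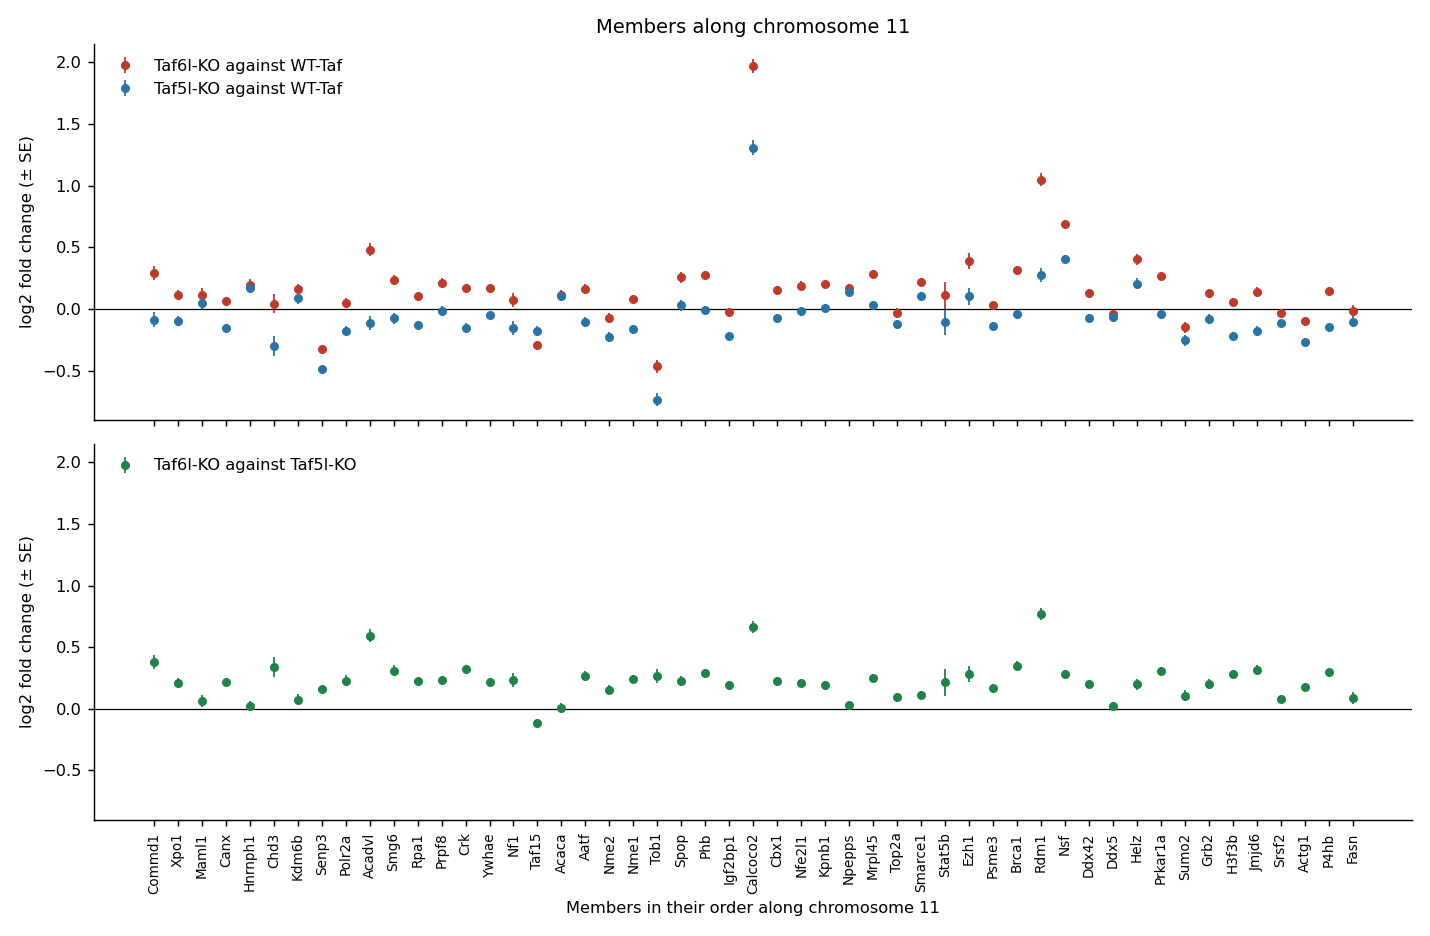
Log2 fold change with its standard error (SE, n = 3 libraries a group) for the 51 genes, placed in their order along chromosome 11. The upper panel shows Taf6l-KO and Taf5l-KO against their common wild type and the lower panel Taf6l-KO against Taf5l-KO; in the lower panel 50 of 51 points lie above 0 and only Taf15 lies below.

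The members are described next by role, with roles set when earlier results were known and on the contrast that chose the chromosome. For every role, the calls stand beside 19.1% higher and 18.2% lower among all genes tested. Among the other chromosome 11 genes the shares were 38.2% and 6.33%. The 5 genes of nuclear transport, membrane traffic and autophagy were all called higher in Taf6l-KO, with the highest median of the 8 roles (0.29). Calcoco2, which encodes a receptor that brings cargo to autophagosomes, was 16.1, 16.5 and 17.3 CPM in wild type, 64.8, 62.9 and 67.1 in Taf6l-KO and 37.8, 42.6 and 42.7 in Taf5l-KO. The 3 groups did not overlap, and the log2 fold change in Taf6l-KO was 1.97 ± 0.057 (SE). Nsf, which encodes the ATPase that takes apart SNARE complexes after membrane fusion, was 107, 103 and 106 CPM in wild type and 173, 169 and 168 in Taf6l-KO. Its log2 fold change was 0.69 ± 0.032, again with no overlap. The other 3 lay nearer the median, at 0.29 for Commd1, which acts in endosomal sorting, 0.20 for the import receptor Kpnb1 and 0.11 for the export receptor Xpo1. Kpnb1 shows how tight such a small difference was, at 1319, 1325 and 1331 CPM in wild type and 1539, 1508 and 1528 in Taf6l-KO.

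Among the 4 genes of DNA replication, repair and topology 3 were called higher and none lower, with a median of 0.21. Rdm1, a gene with a RAD52 motif, was 30.7, 31.6 and 29.2 CPM in wild type and 61.3, 60.1 and 68.1 in Taf6l-KO, a log2 fold change of 1.05 ± 0.053. Brca1, which acts in repair by homologous recombination, was 128, 135 and 130 CPM in wild type and 160, 164 and 165 in Taf6l-KO (0.31 ± 0.036). The single-strand DNA binding subunit Rpa1 had a value of 0.10. Top2a, the topoisomerase of dividing cells, was 819, 850 and 835 CPM in wild type and 819, 806 and 824 in Taf6l-KO, so its groups overlapped, and its log2 fold change was -0.03 ± 0.036.

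The 7 chromatin genes all had a value above 0 in Taf6l-KO, and 5 were called higher (median 0.15). Ezh1, a methyltransferase of Polycomb repressive complexes, had the highest value among them, 21.7, 22.8 and 20.6 CPM in wild type and 27.1, 29.3 and 29.1 in Taf6l-KO (0.39 ± 0.065). Smarce1 of the BAF remodelling complex followed at 0.22, then the histone demethylase gene Kdm6b at 0.16, Cbx1 (heterochromatin protein HP1 beta) at 0.15 and Jmjd6 at 0.14. The histone H3.3 gene H3f3b (0.06) and the remodeller gene Chd3 (0.04) were not called.

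Genes of RNA binding, splicing and decay were divided. Helz (0.40), Smg6 (0.23), Prpf8 (0.21), Hnrnph1 (0.20) and Ddx42 (0.13) were called higher, while Ddx5 (-0.04), Srsf2 (-0.03) and Igf2bp1 (-0.03) were not called. Prpf8, the core protein of the spliceosome, was 1048, 1068 and 1075 CPM in wild type and 1305, 1194 and 1198 in Taf6l-KO. Igf2bp1, which encodes an mRNA-binding protein abundant in early development, was 1041, 1050 and 1076 CPM in wild type and 1067, 1015 and 1028 in Taf6l-KO. The groups of Prpf8 did not overlap and those of Igf2bp1 did, although both have near-equal counts in wild type.

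The 8 genes of RNA polymerase, transcription factors and coregulators were divided as well, with 3 called higher and 2 lower. Spop, a substrate adaptor of a ubiquitin ligase, was at 0.26, Nfe2l1, a transcription factor of proteasome genes, at 0.19 and Aatf at 0.16. Tob1, an antiproliferative protein that recruits the CCR4-NOT deadenylase, was 45.2, 43.6 and 43.4 CPM in wild type and 29.2, 32.99 and 33.7 in Taf6l-KO (-0.47 ± 0.053), the lowest value of the 51. Taf15, which encodes an RNA-binding protein that associates with TFIID, was 82.8, 85.3 and 82.7 CPM in wild type and 70.5, 68.2 and 65.9 in Taf6l-KO (-0.29 ± 0.037). Both lay below wild type in every library. Maml1 (0.12), Stat5b (0.11) and Polr2a, the largest subunit of RNA polymerase II (0.05), were not called.

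Genes of protein folding, peptidases, the proteasome and SUMO had the lowest median (0.048), with 2 called higher and 2 lower. The SUMO protease gene Senp3 was 403, 391 and 394 CPM in wild type and 311, 321 and 317 in Taf6l-KO (-0.33 ± 0.028). Sumo2 itself was 278, 301 and 285 CPM in wild type and 258, 262 and 261 in Taf6l-KO (-0.15 ± 0.045). Both enzyme and modifier were thus below wild type in every library. Npepps (0.17) and P4hb, a protein disulfide isomerase (0.15), were called higher, and the chaperone gene Canx (0.06) and the proteasome activator gene Psme3 (0.03) were not.

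The 7 genes of metabolism and mitochondria had 4 called higher and none lower. Acadvl, which encodes the first enzyme of very long-chain fatty acid oxidation, was 18.6, 17.3 and 18.5 CPM in wild type and 24.7, 25.3 and 25.8 in Taf6l-KO (0.48 ± 0.053). Phb and Mrpl45, for prohibitin and a mitochondrial ribosomal protein, were both at 0.28, and Acaca, for the enzyme that commits carbon to fatty acids, at 0.11. Nme1 (0.08), Fasn (-0.01) and Nme2 (-0.07) were not called. Of the 6 signalling and cytoskeleton genes 4 were called higher, namely Prkar1a (0.27), Crk (0.17), Ywhae (0.17) and Grb2 (0.13), and Nf1 (0.07) was not called. Actg1, cytoplasmic gamma actin, which had the highest count of the 51, was 2392, 2405 and 2408 CPM in wild type and 2220, 2254 and 2271 in Taf6l-KO (-0.10 ± 0.028).

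The spread of the 51 values was wider than their errors. Their SD was 0.35, or 0.18 without Calcoco2, Rdm1 and Nsf, while the median SE of a value was 0.037. Of the 51 genes 21 lay within 2 SE of the members' median. Around their own medians, 3907 of 8930 other autosomal genes averaging at least 100 counts and 21 of the 50 partners described below did so. A spread wider than the errors was therefore not particular to the members. Along the chromosome, the medians of the 17 genes nearest the start of the chromosome, the next 17 and the last 17 were 0.12, 0.16 and 0.13. By wild-type CPM the medians were 0.16 for the lowest 17 genes, 0.17 for the middle 17 and 0.049 for the highest 17. Classes by level were not made for genes off the chromosome, so whether this order is particular to chromosome 11 was not tested.

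Beyond the list, 1249 other genes of chromosome 11 were tested. In Taf6l-KO 477 of them were called higher and 79 lower, with a median log2 fold change of 0.16, beside the 19.1% and 18.2% of all genes tested. DESeq2 called 313 higher, and limma-trend on log2(FPKM + 1) called 238 higher and 40 lower. The medians of the 19 other chromosomes with at least 100 tested genes ran from -0.097 (X) to 0.043 (chromosome 1). When the 1300 genes were cut into 13 consecutive bins of 100, all 13 medians were above 0, from 0.11 in bin 13 to 0.19 in bin 5. In 5 classes of 260 genes by rising mean count the median was 0.24, 0.22, 0.17, 0.16 and 0.11. The interquartile range narrowed from 0.68 to 0.22. No such classes were made off chromosome 11, so whether the fall of the median with count is particular to it was not tested. The median was 0.020 over all genes tested and -0.013 over other autosomal genes averaging at least 100 counts.

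How even the difference was can also be read from whole distributions, over genes averaging at least 100 counts (859 on chromosome 11 and 8930 on other autosomes). Against wild type, the 10th, 25th, 50th, 75th and 90th percentiles of chromosome 11 exceeded those of the other autosomes by 0.17, 0.16, 0.16, 0.13 and 0.13. Against Taf5l-KO the same percentiles exceeded them by 0.22, 0.22, 0.23, 0.22 and 0.23. That contrast also holds the values of Taf5l-KO, whose own percentiles against wild type differed from the other autosomes by -0.040, -0.061, -0.072, -0.093 and -0.095. The SD over genes was 0.28 on chromosome 11 and 0.30 elsewhere against wild type, and 0.18 in both against Taf5l-KO. The chromosome 11 distribution was therefore shifted at each of these percentiles, with an interquartile range of 0.25 compared with 0.28 elsewhere against wild type and of 0.18 in both against Taf5l-KO.

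**Figure D2:**
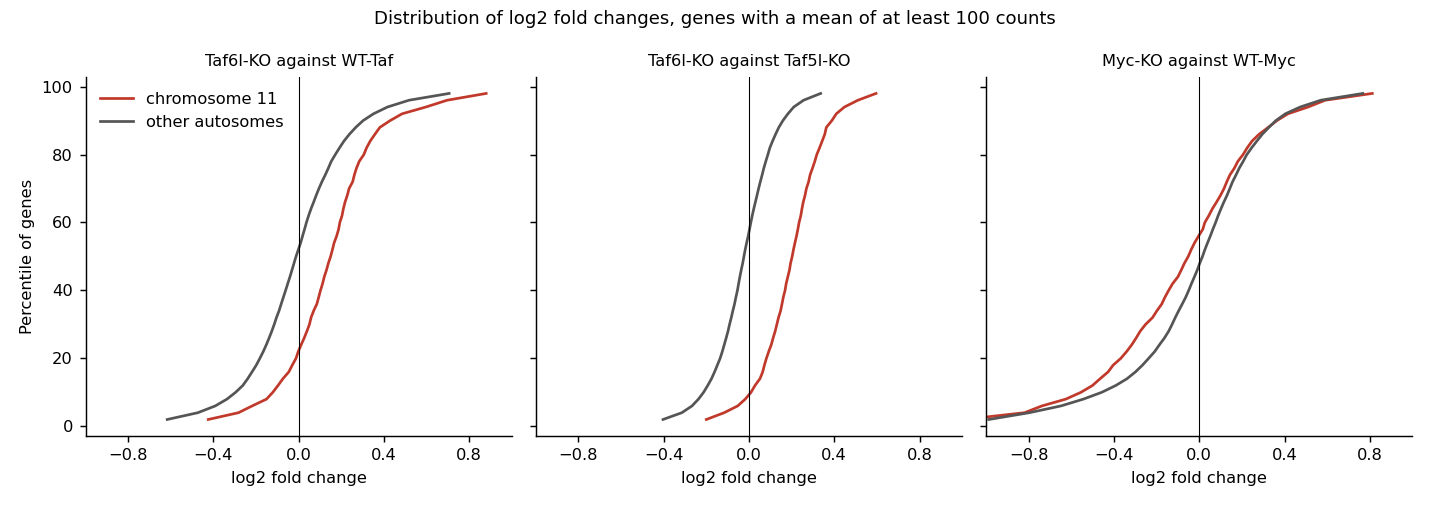
Cumulative distributions of the log2 fold change (x axis) over genes averaging at least 100 counts, with the percentile of genes on the y axis, for chromosome 11 and for the other autosomes. The curves run side by side in Taf6l-KO against wild type (0.13 to 0.17 apart at the 5 percentiles given) and against Taf5l-KO (0.22 to 0.23 apart), and in Myc-KO the chromosome 11 curve lies to the left, at lower fold changes, mostly among the lower percentiles.

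The difference was alike in the 3 Taf6l-KO libraries. The median log2 ratio of the 51 genes to the wild-type mean was 0.15, 0.16 and 0.14 in the 3 Taf6l-KO libraries and -0.11, -0.077 and -0.064 in the 3 Taf5l-KO libraries. The single wild-type libraries lay between -0.0058 and 0.0031, but they form that mean themselves and so lie near 0 by construction. Chromosome 11 held 9.10%, 9.31% and 9.37% of the counts of the Taf6l-KO libraries, 8.21%, 8.24% and 8.24% of those of WT-Taf and 7.75%, 7.56% and 7.83% in Taf5l-KO. The Taf6l-KO libraries were the highest and the Taf5l-KO libraries the lowest, without overlap. In the Myc experiment the share ran from 9.86% to 10.2% in the knockout and from 10.4% to 10.5% in its wild type, and levels were not compared between the experiments.

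**Figure D3:**
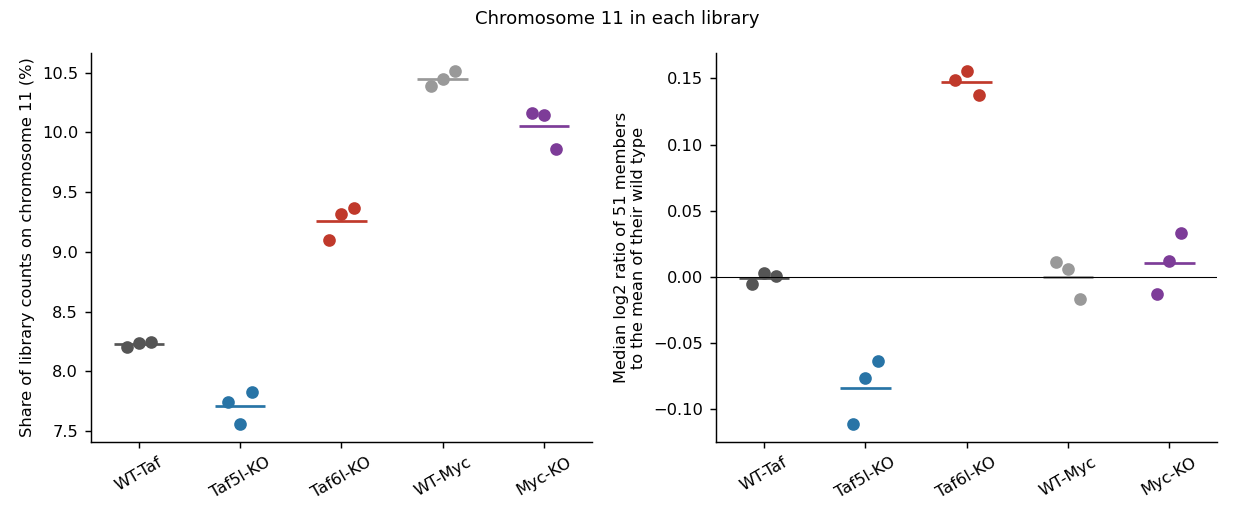
Each point is 1 library and each bar the mean of 3, by group. The left panel gives the share of a library's counts on chromosome 11 in percent, and the right panel the median log2 ratio of the 51 genes to the mean of their own wild type; Taf6l-KO lies above and Taf5l-KO below WT-Taf in both.

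In Taf5l-KO, a contrast that did not choose the chromosome but shares the 3 wild-type libraries with the one that did, the 51 genes leaned the other way. By edgeR (quasi-likelihood, Benjamini-Hochberg adjustment over all genes tested) 7 of them rose and 20 fell, with a median log2 fold change of -0.087, where 17.4% of all genes rose and 15.9% fell. All Taf5l-KO libraries lay above wild type for 8 genes and below it for 26, against 22.7% and 22% of all genes tested. On log2(FPKM + 1), limma-trend called 5 higher and 11 lower. The other 1249 genes of the chromosome had 147 rises, 253 falls and a median of -0.060, and the medians of the 19 other chromosomes ran from -0.13 (X) to 0.039. By wild-type CPM the members' medians were -0.087 for the lowest 17 genes, -0.037 for the middle 17 and -0.13 for the highest 17. Rises and falls were 3 and 5 in the lowest, 4 and 4 in the middle and 0 and 11 in the highest. Classes by level were not made off the chromosome. Of the 50 partners described below 22% rose and 30% fell, with a median of -0.010.

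The rises in Taf5l-KO were those of Calcoco2, Nsf, Rdm1, Helz, Hnrnph1, Npepps and Smarce1. Calcoco2 had a log2 fold change of 1.31 ± 0.060 (SE; adjusted p = 2.02e-09 in edgeR) with the values given above. Nsf was 138, 142 and 138 CPM in Taf5l-KO against 107, 103 and 106 in wild type (0.41, adjusted p = 3.44e-07 in edgeR). Rdm1 was 36.1, 37.8 and 37.3 CPM against 30.7, 31.6 and 29.2 (0.28, adjusted p = 0.0016 in edgeR), a call lost on log2(FPKM + 1), where limma gave an adjusted p of 0.078. The groups did not overlap for these 3 genes. Smarce1, at 81.0, 80.6 and 79.6 CPM against 72.3, 76.0 and 75.8, had the smallest rise of the 7 (0.11, adjusted p = 0.026 in edgeR). Its call was lost when any of Taf5l-KO replicates 1 or 2 or WT-Taf replicate 1 was left out (adjusted p = 0.056, 0.062 and 0.13 in edgeR). With all libraries it was also lost under library totals, no filter and the fit of all 15 (adjusted p = 0.12, 0.082 and 0.096 in edgeR). The same held in DESeq2 (adjusted p = 0.18) and in limma on both FPKM scales (adjusted p = 0.28).

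Falls in Taf5l-KO, which 15.9% of all genes showed, were found in 5 of the 6 genes of protein folding, peptidases, the proteasome and SUMO, 3 of 6 signalling and cytoskeleton genes, 2 of 4 genes of DNA replication and repair and 3 of 7 chromatin genes. They were also found in 3 of 8 genes of RNA polymerase and transcription factors, 2 of 7 of metabolism and 2 of 8 of RNA binding, and in none of the 5 transport and traffic genes. Tob1 was 26.3, 27.1 and 26.04 CPM in Taf5l-KO, below the 43.4 to 45.2 CPM of wild type (-0.73 ± 0.055, adjusted p = 2.06e-07 in edgeR). Senp3 was 286, 282 and 280 CPM against 391 to 403 CPM (-0.49 ± 0.029, adjusted p = 2.08e-08 in edgeR). Actg1 was 1998, 2010 and 1969 CPM against 2392 to 2408 CPM (-0.27 ± 0.028, adjusted p = 4.39e-06 in edgeR). Every Taf5l-KO library lay below every wild-type library for these 3 genes. H3f3b (-0.22), Igf2bp1 (-0.22) and Nme2 (-0.22) also fell, as did Chd3 (-0.30), which missed the threshold when Taf5l-KO replicate 2 was left out (adjusted p = 0.061 in edgeR). Of the 27 calls in Taf5l-KO 5 were lost when some single library was left out: Chd3, Smarce1, Nf1 (adjusted p up to 0.20), Srsf2 (up to 0.061) and Top2a (up to 0.068).

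Set directly against Taf5l-KO, with no wild-type library in the contrast but with the Taf6l-KO libraries that chose the chromosome, the values of the 51 genes were closer together. The fitted log2 fold change was above 0 for 50 genes, with a median of 0.22 and an interquartile range from 0.16 to 0.29. By edgeR 39 were called higher and 1 lower, against 8.55% and 10.1% of all genes tested, and all libraries lay above for 41 and below for 1, against 17.2% and 17.5%. The SD over the 51 genes was 0.15, compared with 0.35 against wild type. Without Calcoco2, Rdm1 and Nsf it was 0.12, compared with 0.18. Of the 51 genes 26 lay within 2 SE of the median. Around their own medians, 5414 of 8930 other autosomal genes averaging at least 100 counts and 26 of 50 partners did so. Genes elsewhere were closer together in this contrast too, with an SD of 0.18 compared with 0.30 for other autosomal genes averaging at least 100 counts and of 0.14 compared with 0.27 for the partners described below. Medians along the chromosome were 0.23, 0.21 and 0.20, and by wild-type CPM they were 0.27, 0.21 and 0.20.

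The values of both Taf6l-KO contrasts, which share the Taf6l-KO libraries, are set side by side for the outlying genes. Senp3 was -0.33 against wild type and 0.16 against Taf5l-KO, Tob1 went from -0.47 to 0.27, Actg1 from -0.10 to 0.17, and Nsf from 0.69 to 0.29. Taf15 was the gene called lower, at 70.5, 68.2 and 65.9 CPM in Taf6l-KO and 71.6, 74.6 and 75.5 in Taf5l-KO (-0.12 ± 0.037), a call kept under RLE scaling and lost under the 8 other alternatives that use all libraries, and without Taf6l-KO replicate 2 or 3 or Taf5l-KO replicate 2 or 3. Rdm1 (0.77), Calcoco2 (0.66) and Acadvl (0.59) were highest, and Rdm1 was 61.3, 60.1 and 68.1 CPM in Taf6l-KO against 36.1, 37.8 and 37.3 in Taf5l-KO. Genes at the low end were Acaca (0.01), Hnrnph1, Ddx5 (both 0.02) and Npepps (0.03), none of which was called. In all 13 bins along the chromosome the median was above 0, from 0.16 to 0.26, and the medians of the 19 other chromosomes ran from -0.036 to 0.015.

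To set the 51 genes beside genes of like function, a paralog or complex partner on another chromosome was taken for each. Acss2, taken for Fasn, is an exception and is neither of these. Of the partners 50 were tested. In Taf6l-KO 8 partners (16%) were called higher and 16 (32%) lower, against 19.1% and 18.2% of all genes tested. Their median was -0.076, below the 0.020 of all genes tested and the -0.013 of other autosomal genes averaging at least 100 counts. The member had the higher value in 37 of 50 pairs, so low partners enter this count too. Pair counts with Taf6l-KO are a description, because its libraries chose the chromosome. Against Taf5l-KO the member was higher in 46 of 50 pairs, and in Taf5l-KO against wild type in 21 of 50. Single pairs show the gap: Brca1 had 0.31 and its partner Bard1 -0.31 in Taf6l-KO, Ezh1 had 0.39 and Ezh2 -0.23, Phb had 0.28 and Phb2 -0.26, and H3f3b had 0.06 and H3f3a, for the same histone, -0.39. Not all pairs did, as Prkar1a (0.27) and Prkar2a (0.21) were close, and Fasn (-0.01) lay under its partner Acss2 (0.76), which makes acetyl-CoA from acetate.

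**Figure D4:**
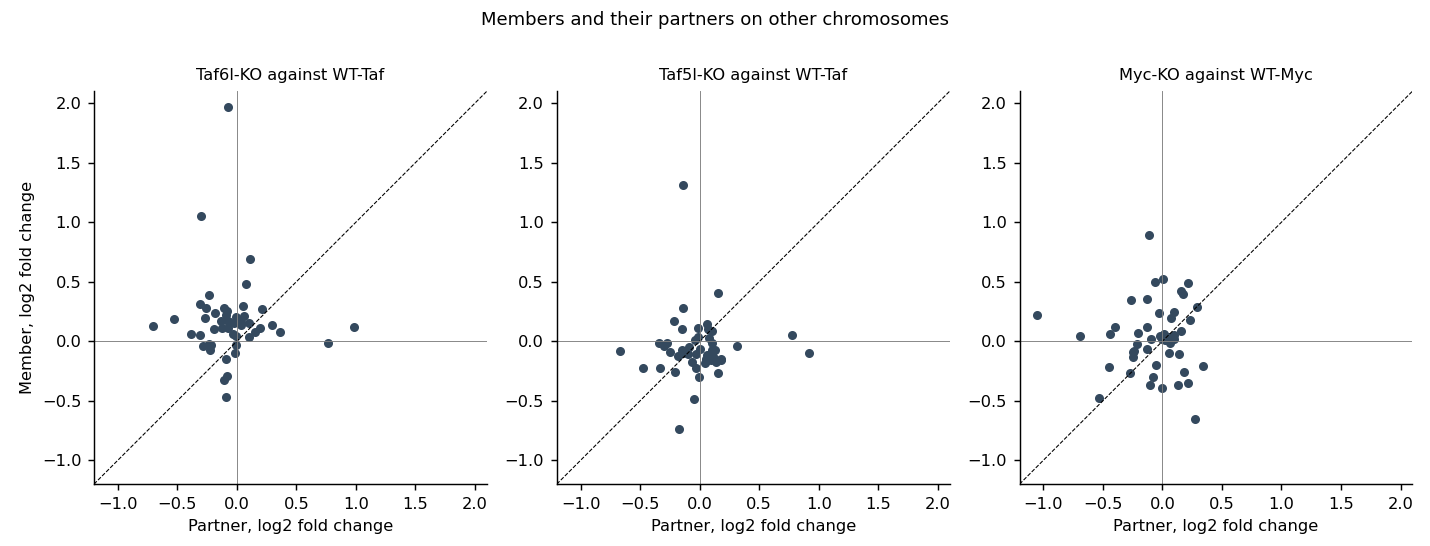
Each point is a pair, with the log2 fold change of the partner on another chromosome on the x axis and that of the chromosome 11 gene on the y axis; the dashed line marks equal values. In Taf6l-KO 37 of 50 points lie above the line, in Taf5l-KO 21 of 50 and in Myc-KO 30 of 49.

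In Myc-KO, whose libraries and wild type had no part in choosing the chromosome, the 51 genes went both ways. By the same edgeR test 13 rose and 12 fell (15.2% and 19.5% of the 14563 genes tested did), with a median log2 fold change of 0.022. All Myc-KO libraries lay above wild type for 15 genes and below it for 15, against 22.9% and 26.7% of all genes tested. With limma-trend on log2(FPKM + 1), 10 were called higher and 7 lower. The chromatin genes had 4 rises and no fall, the genes of metabolism and mitochondria 1 rise and 4 falls, and the RNA-binding genes no rise and 3 falls.

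Chd3 had the largest rise in Myc-KO, from 14.7, 14.2 and 15.3 CPM in wild type to 27.6, 26.2 and 28.3 (0.89 ± 0.066, adjusted p = 7.17e-05 in edgeR). Calcoco2 was 72.6, 74.3 and 75.8 CPM in WT-Myc and 103, 107 and 104 in Myc-KO (0.49 ± 0.049, adjusted p = 0.00026 in edgeR), Rdm1 rose by 0.50 and Nsf by 0.40. By edgeR these 3 genes therefore rose in both tested knockouts, each against its own wild type, with the exception given above for Rdm1 in Taf5l-KO on the FPKM scale. Smarce1 (0.35), Actg1 (0.35) and P4hb (0.42) rose as well. Taf15 went from 149, 140 and 134 CPM to 188, 192 and 229 (0.53, adjusted p = 0.0024 in edgeR), whereas it fell in Taf5l-KO (-0.18, adjusted p = 0.0020 in edgeR). Both calls of Taf15 were lost on log2(FPKM + 1), with adjusted p in limma of 0.061 in Myc-KO and 0.13 in Taf5l-KO.

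Falls in Myc-KO included the lipid enzyme gene Acaca, from 116, 117 and 118 CPM in wild type to 82.6, 86.3 and 83.1 (-0.48 ± 0.047, adjusted p = 0.00024 in edgeR), Prpf8 (-0.39), Acadvl (-0.37), Helz (-0.31) and Polr2a (-0.26). No group overlap occurred for Acaca. Of the 25 calls in Myc-KO 7 were lost when some single library was left out: Fasn, H3f3b, Kdm6b, Nf1, Nme1, Phb and Ywhae, with adjusted p up to 0.14 in edgeR. Xpo1 was 496, 440 and 349 CPM in WT-Myc and 269, 295 and 481 in Myc-KO, so replicate 3 lay on the other side of its group. Its log2 fold change was -0.30 (adjusted p = 0.34 in edgeR), and without Myc-KO replicate 3 it was -0.58 (adjusted p = 0.0030 in edgeR). Without that library Hnrnph1 (-0.16, adjusted p = 0.017) and Senp3 (0.11, adjusted p = 0.049) passed the same test, which they did not with all 6 libraries.

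In Myc-KO the values differed along the chromosome. The medians of the first, middle and last 17 genes were -0.11, 0.022 and 0.12, with 4 rises and 7 falls in the first and 7 rises and 1 fall in the last. Over the same 13 bins, which hold the genes tested in the Taf experiment and are counted here where Myc-KO also tested them, the medians of the first 3 were -0.51, -0.39 and -0.37, and those of the other 10 lay between -0.075 and 0.11. The first 3 bins held 275 tested genes, of which 6 rose and 163 fell. The other 10 bins held 886, of which 181 rose and 159 fell, where 15.2% of all genes tested rose and 19.5% fell. Of the members 5 lie in the first 3 bins, and the fitted values were -0.65 for Canx, -0.40 for Maml1, -0.36 for Commd1, -0.30 for Xpo1 and -0.11 for Hnrnph1, with the first 3 called lower. Canx, an endoplasmic reticulum chaperone, was 965, 948 and 887 CPM in WT-Myc and 555, 561 and 664 in Myc-KO (adjusted p = 0.00055 in edgeR). This stretch was picked after its values were seen and is given with no test. Among the 19 other chromosomes, the lowest median in Myc-KO was -0.32, on chromosome 14.

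**Figure D5:**
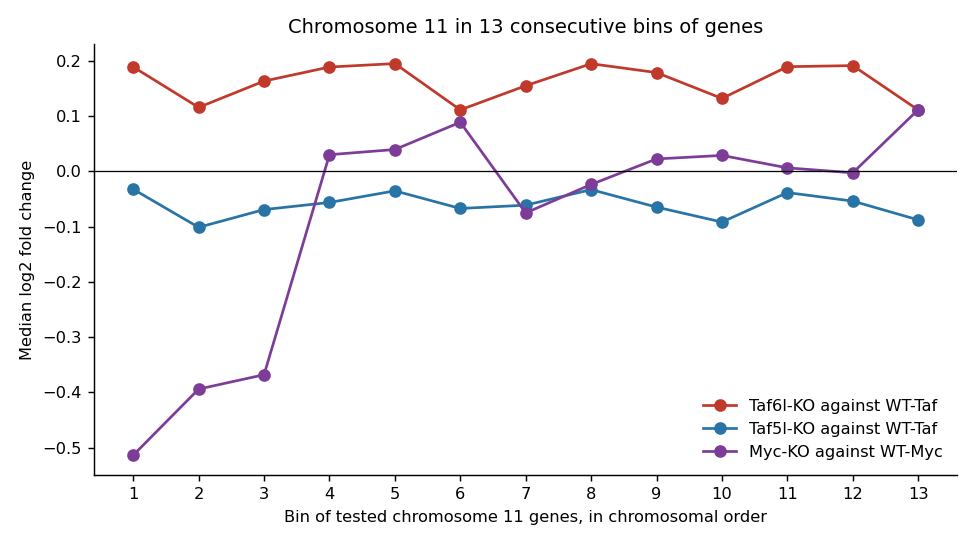
Median log2 fold change (y axis) in 13 consecutive bins of up to 100 tested chromosome 11 genes, in chromosomal order (x axis), for the 3 knockouts against their own wild type. Taf6l-KO stays between 0.11 and 0.19 in every bin and Taf5l-KO between -0.10 and -0.032, while Myc-KO starts at -0.51, -0.39 and -0.37 and lies between -0.075 and 0.11 from bin 4 on.

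Other genes of the chromosome that average at least 100 counts show the range of single genes around the median of the chromosome. The 4 lowest in Taf6l-KO were Grb10, Hist3h2ba, Atp2a3 and Fam196b, and the 4 highest were Slit3, Urgcp, Ddc and Tekt1. Grb10, an imprinted gene for an adaptor that dampens insulin and growth factor receptor signalling, was 166, 170 and 179 CPM in WT-Taf, 51.8, 50.9 and 46.2 in Taf6l-KO and 62.2, 63.2 and 70.4 in Taf5l-KO. It fell in Taf5l-KO (-1.40, adjusted p = 3.8e-10 in edgeR) and in Myc-KO (-0.76, adjusted p = 0.00010 in edgeR), and its value in Taf6l-KO was -1.79. Ddc, for the decarboxylase that makes dopamine and serotonin, was 17.5, 14.4 and 14.7 CPM in WT-Taf, 35.7, 33.9 and 34.6 in Taf6l-KO and 28.6, 28.7 and 24.4 in Taf5l-KO, the last a rise of 0.81 (adjusted p = 3.7e-06 in edgeR). The groups did not overlap for either gene, and both Taf contrasts use the same wild-type libraries.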

How the data were processed

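RNA-seq was made from total RNA depleted of ribosomal RNA with a directional library kit, per the labels' protocols. Per the submitters' processing notes, Salmon 0.8.2, DESeq2 1.14.1 and mm9 were used, each in a role the notes leave out. A strand setting for the counting was not given in the sources. Whole-number estimated counts, as deposited by the authors, were used without rounding. The authors also deposited FPKM values whose scale differs from the usual one. Levels were therefore not compared between genes by FPKM, apart from the 1 FPKM level of the marker check. The deposited TPM and normalized tables were not used.

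Samples were grouped by title. The test was edgeR 4.0.16 under R 4.3.3 (TMM, filterByExpr, glmQLFit, glmQLFTest; Benjamini-Hochberg, threshold 0.05) in a fit of the 9 Taf libraries (15743 genes) and a fit of the 6 Myc libraries (14563 genes). Each SE is the absolute fitted log2 value over the square root of F. Library ratios used log2(CPM + 0.5). Chromosome and order were looked up by gene ID in GENCODE M21 (GRCm38; 32620 genes found), and no file coordinates are printed because the builds differ. All members and partners, the targeted genes, and the 4 largest rises and 4 largest falls on chromosome 11 at a mean of at least 100 counts, leaving out clone-like names, could be named. The members, roles, partners and other lists were chosen with earlier results of these data known. Alternatives were RLE scaling, library totals, TMM from genes off chromosome 11, no filter, DESeq2 1.42.0, a replicate block, all 15 libraries in a single fit, each library left out, and limma-trend (limma 3.58.1) on log2(FPKM + 1) and log2(FPKM + 0.1) at a mean of at least 0.5 FPKM. The fits were tested on simulated data. Figures were drawn with Python 3.11.15 and matplotlib 3.10.9.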

Additional observations from a re-analysis of the deposited data

How the results depend on the processing

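Medians kept their sign under every alternative except those of the partners, which lay near 0: in Taf5l-KO (-0.010) it was 0.028 on both FPKM scales and also above 0 without Taf5l-KO replicate 1, and in Myc-KO (-0.0069) it was above 0 in 8 settings, at most 0.034 with library totals. No member's called value changed sign. In Taf6l-KO against wild type the median of the 51 genes was 0.21 with library totals, 0.12 with DESeq2 and 0.15 on log2(FPKM + 0.1), and 0.139 to 0.155 with a library left out. The counts were 18 higher and 2 lower on both FPKM scales, and 3 lower with library totals or with all 15 libraries in a single fit. Library totals moved the median of all genes to 0.088 from 0.020, and that of chromosome 11 lay 0.14 above it in both. For the other chromosome 11 genes the median was 0.23 with library totals, 0.15 with DESeq2 and on log2(FPKM + 0.1), and 0.14 on log2(FPKM + 1), with 313 higher in DESeq2, 238 and 241 higher and 40 and 39 lower on the FPKM scales, and 50 lower with library totals. For the partners the median was -0.0072 with library totals and -0.089 with DESeq2, from -0.088 to -0.047 with a library left out, and 5 were higher in DESeq2 and in the fit of all 15, 4 on both FPKM scales and 5 to 8 with a library left out.

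In Taf5l-KO the FPKM scales gave 11 members lower, 82 other genes higher and 124 lower, and 7 partners higher and 7 lower. Partners called higher were 7 with library totals and 5 in the fit of all 15. In Taf6l-KO against Taf5l-KO the members' median was 0.31 with library totals, 21 and 22 were higher on the FPKM scales, and the 1 lower call (Taf15) became 0 with library totals, TMM from genes off chromosome 11, no filter, DESeq2, the replicate block, all 15 libraries and both FPKM scales, and 0 to 1 with a library left out. In Myc-KO the members' median was 0.061 with library totals, 0.057 in the fit of all 15 and 0.051 on both FPKM scales, where 7 fell. The other genes had medians of -0.024 and -0.033 in the first 2 of these and -0.080 to -0.035 with a library left out, the last without Myc-KO replicate 3, and 192 and 190 fell on the FPKM scales. On those scales 6 partners fell, and with a library left out 3 to 7 rose and 6 to 13 fell. The first 3 bins of Myc-KO, picked after their values were seen, had medians from -0.44 to -0.36 over 15 settings, with 120 to 190 falls. The cause of these differences was not tested.

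With the replicate number as a block, 8 members, 115 other genes and 2 partners rose in Myc-KO and 6 partners fell. Same-numbered libraries did not deviate together (correlations of 0.030 to 0.11 between Taf5l-KO and Taf6l-KO, -0.098 to 0.10 with WT-Taf and -0.62 to -0.17 in the Myc experiment), so the numbers were not taken to pair the samples. Of 51 members 25 kept the same call in all settings in Taf6l-KO, 28 in Taf5l-KO, 24 in Taf6l-KO against Taf5l-KO and 30 in Myc-KO. Of the calls, 11 of 27 in Taf5l-KO and 14 of 25 in Myc-KO held in every setting, with 14 and 8 lost on the FPKM scales.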
